A study of Rattus norvegicus with 24 samples.

Results

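Genes of the cell cycle and of proliferation were followed in the blood of rats with and without arthritis. The set holds 42 named genes that copy DNA, drive division or mark dividing cells, and its members are given by gene symbol. They were chosen with earlier results of these data known. A gene was read from probe sets (groups of short oligonucleotides on the array) that the platform annotation gives to that gene alone, and from the brightest by mean where there were several. By this rule 39 of the 42 genes were measured, among 14217 genes with such a probe set in the whole table. Of the 39, 36 passed the filter on low values, which kept a probe set above the 40th percentile of the array in at least 2 arrays, and counts below are over those 36. Ccna2 was above that percentile in 3 of the 24 arrays, Bub1b in 7, Uhrf1 in 10, Bub1 in 11 and Racgap1 in 16. Melk, Ttk and Ect2 did not pass, Rrm2 and Hmgb2 were read only by probe sets shared with other genes, and Tpx2 was not measured under this rule.

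Peripheral blood mononuclear cells (PBMCs, the lymphocytes and monocytes that a Ficoll density gradient separates from whole blood) of female Wistar rats were hybridised to whole-genome rat arrays of Affymetrix. Collagen-induced arthritis (CIA) was raised with bovine type II collagen in adjuvant, and healthy rats are named NOCIA. At 1 hour and at 34 days CIA rats were sampled in 4 arms. MS rats received needle stimulation, MTX rats methotrexate by weekly injection into the peritoneum, and PLA rats saline by the same route. ANE rats received no therapy and were sampled under isoflurane in place of ether, the agent stated for the other 3 arms. NOCIA rats were sampled at 1 hour and 34 days as well, and CIA and NOCIA rats also at baseline. This gave 12 groups of 2 arrays. Rats were killed at sampling, so each array is a separate animal and no rat was followed over time. The age of the rats is not given in the sources used here, and within an arm the passage of time cannot be told apart from treatment. The CIA arms share 1 pair of baseline arrays.

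A dividing cell first copies its DNA and then separates the copies. The MCM helicase unwinds the DNA, the clamp Pcna holds the polymerase on it, and Rrm1 and Tk1 supply the building blocks. Cyclins switch on the kinase Cdk1, the chromosomes are condensed and attached to the spindle, a checkpoint waits until each is attached, and cytokinesis parts the daughter cells. Most cells in blood do not divide, so transcripts of the division phase come from few cells, such as activated lymphocytes, whereas Pcna also serves the repair of DNA.

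Values are log2 expression levels made by RMA, so a difference of 1 is a 2-fold change. They ran from 2.18 to 15.02, with array medians of 5.49 to 5.58. The T cell marker Cd3e was bright in every array (9.74 to 11.97). Of the other T cell markers Cd4 ran only from 5.00 to 5.64, and Trat1 fell to 3.67 in MS replicate 1 at 34 days. The platelet gene Pf4 (14.22 to 14.71) and the haemoglobin gene Hbb (14.56 to 14.86) were also bright, so the preparations held RNA of platelets and red cells. On the first principal component of all 20690 probe sets kept, which took 45.8% of the variance, MS replicate 1 at 34 days, MS replicate 1 at 1 hour, ANE replicate 1 at 1 hour and PLA replicate 2 at 1 hour stood apart (39.50 to 125.21, with the other 20 arrays between -39.42 and 15.39). These 4 arrays had the highest levels of the platelet marker list (0.87 to 1.29, against -0.69 to 0.47 in the others). In bulk RNA fewer cells of a type and less RNA per cell cannot be told apart.

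Promoter windows are shown for the members that fell in healthy rats and for 1 replication gene as a contrast, so that their elements can be read. A window of 300 bases, from 250 before to 50 after the start site, was taken from RefSeq (build GRCr8) for 34 of the 39 measured members. The 4 genes that fell in healthy rats (Mki67, Ccnb2, Cdkn3 and Ccnb1) and Mcm6, an example of a helicase gene whose window holds E2F words, are printed 5′ to 3′ on the strand of the gene. Capitals mark CCAAT (the NF-Y box), TTTGAA (a spelling of the cell cycle homology region) and TTCCCGC or TTGGCGC (E2F sites), on either strand, where CCAAT reads ATTGG and TTTGAA reads TTCAAA. In the Mki67 window 1 ATTGG overlaps a TTTGAA. The windows lie at chr1:199952544-199952843 (minus strand), chr8:79981609-79981908 (minus strand), chr15:22502136-22502435 (plus strand), chr2:33655176-33655475 (minus strand) and chr13:42404303-42404602 (minus strand).
Mki67: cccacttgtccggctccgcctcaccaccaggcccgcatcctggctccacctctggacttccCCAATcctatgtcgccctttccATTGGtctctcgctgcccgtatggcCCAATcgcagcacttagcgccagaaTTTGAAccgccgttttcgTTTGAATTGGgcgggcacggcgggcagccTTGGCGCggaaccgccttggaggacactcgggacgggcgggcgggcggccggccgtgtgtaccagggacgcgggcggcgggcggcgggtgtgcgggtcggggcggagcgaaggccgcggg
Ccnb2: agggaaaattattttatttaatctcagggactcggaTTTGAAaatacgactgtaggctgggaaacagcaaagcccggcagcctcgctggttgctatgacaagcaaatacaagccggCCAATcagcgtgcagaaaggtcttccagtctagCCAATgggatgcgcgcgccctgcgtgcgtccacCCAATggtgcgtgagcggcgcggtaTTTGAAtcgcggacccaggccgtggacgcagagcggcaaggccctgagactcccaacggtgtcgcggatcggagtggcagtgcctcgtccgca
Cdkn3: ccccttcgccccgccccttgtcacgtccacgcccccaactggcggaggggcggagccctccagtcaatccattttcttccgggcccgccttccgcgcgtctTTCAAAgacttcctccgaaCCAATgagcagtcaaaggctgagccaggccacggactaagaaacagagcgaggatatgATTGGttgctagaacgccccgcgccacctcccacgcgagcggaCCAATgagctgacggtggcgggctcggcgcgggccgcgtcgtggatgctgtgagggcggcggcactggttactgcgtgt
Ccnb1: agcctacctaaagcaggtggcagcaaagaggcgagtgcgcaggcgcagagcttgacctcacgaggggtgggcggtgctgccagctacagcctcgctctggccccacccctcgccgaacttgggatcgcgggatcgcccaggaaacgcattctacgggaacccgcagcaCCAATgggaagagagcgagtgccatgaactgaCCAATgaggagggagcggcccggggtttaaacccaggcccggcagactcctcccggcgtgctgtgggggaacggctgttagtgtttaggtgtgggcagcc
Mcm6: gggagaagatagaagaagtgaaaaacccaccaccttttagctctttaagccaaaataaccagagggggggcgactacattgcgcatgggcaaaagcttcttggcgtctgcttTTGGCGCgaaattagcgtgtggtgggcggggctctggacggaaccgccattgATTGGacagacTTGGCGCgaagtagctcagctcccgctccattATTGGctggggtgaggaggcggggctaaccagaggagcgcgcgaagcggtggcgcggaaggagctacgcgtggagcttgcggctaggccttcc

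CCAAT was present in 26 of the 34 windows (76.5%), against 37.7% of 27457 genes with a window. TTTGAA was present in 18 (52.9%, against 18.1% of all genes) and an E2F word in 11 (32.4%, against 6.67%). TTTGAA stood in 1 of the 8 windows of the MCM and fork genes and in 17 of the other 26, and an E2F word in 5 of those 8 and in 6 of the other 26. Ccnb2 held 3 CCAAT boxes, whose first bases lie at -134, -101 and -68 from the start site, and TTTGAA at -214 and -43. Mki67 held 4 CCAAT, 2 TTTGAA and 1 E2F word, and Cdkn3 held 3 CCAAT and 1 TTTGAA. Ccnb1 held 2 CCAAT and neither TTTGAA nor an E2F word, and Mcm6 held 2 CCAAT and 2 E2F words. Only these words were searched, so an element spelled otherwise would be missed. Windows of other replication genes differed, with no E2F word in those of Mcm2 and Pcna. A match describes the letters in the window and not whether a factor binds there.

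The level of the set varied between arrays of the same group as well as between groups. The level of an array is the mean over members of the log2 value minus that gene's mean over 24 arrays. It was highest in NOCIA replicate 1 at 1 hour (0.77), where replicate 2 had 0.01, and next in ANE replicate 1 at 1 hour (0.53), where replicate 2 had -0.22. The lowest levels were those of the 34-day groups MS (-0.45 and -0.30), NOCIA (-0.32 and -0.25) and MTX (-0.28 and -0.29). NOCIA baseline had 0.25 in both arrays, above CIA baseline at 0.05 and -0.10. PLA at 34 days had -0.16 in both arrays and ANE -0.08 and 0.08.

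**Figure D1:**
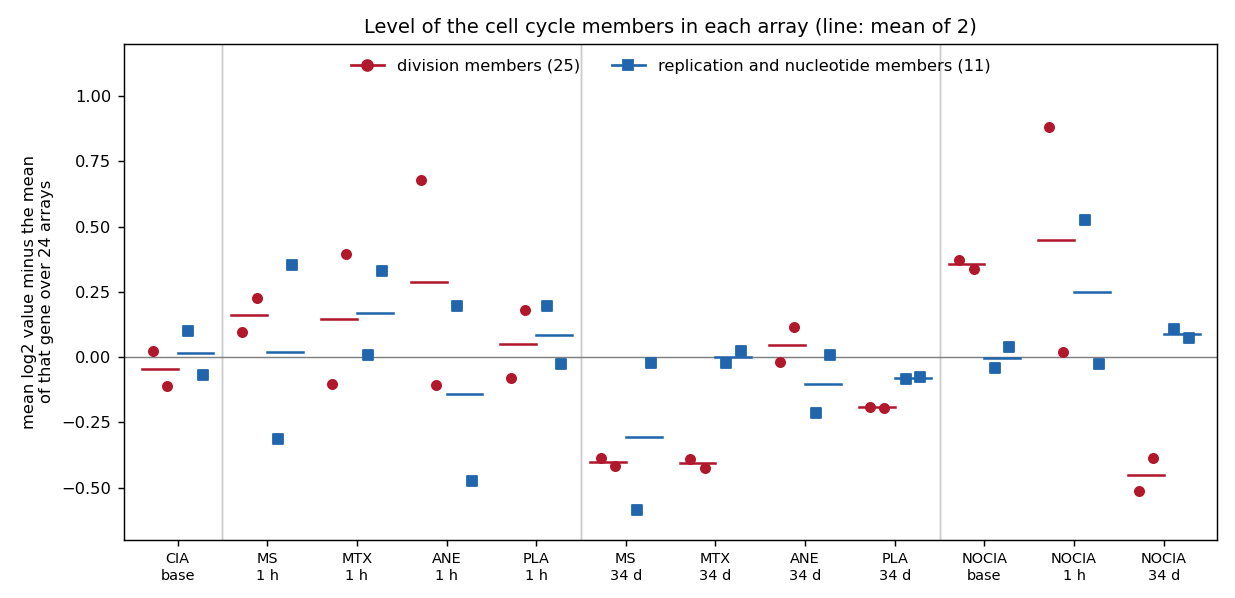
Mean log2 value of the members in each array relative to each gene's mean over 24 arrays (y axis), for 25 division members (circles) and 11 replication and nucleotide members (squares), by group (x axis), with a line at the mean of the 2 arrays. Division members were lowest in MS, MTX and NOCIA at 34 days (between -0.51 and -0.39), while the replication members of NOCIA at 34 days were at 0.11 and 0.07.

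Of the 16 pair comparisons, that of healthy rats at 34 days with their baseline was the one with called members. In NOCIA at 34 days 4 members of the division machinery fell below NOCIA baseline, namely the cyclins Ccnb1 and Ccnb2, the phosphatase Cdkn3 and the proliferation marker Mki67, while the means of 6 replication members were above baseline without a call. Of the 36 members 4 (11.1%) passed in limma (a call is an adjusted p, by Benjamini and Hochberg, under 0.05), all lower, against 12% of the 20690 probe sets called in either direction and 5.66% called lower. The share called thus lay near the background of this comparison, in which 1306 probe sets were higher and 1172 lower. The arrays did not overlap, with both 34-day arrays below both baseline arrays, in 24 members (66.7%), against 34.3% of all probe sets. The median difference was -0.56 over the members and -0.02 over all probe sets. Of the 25 division members 23 lay below 0 (median -0.72), and of the 11 replication and nucleotide members 5 did (median 0.40).

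Mki67 encodes Ki-67, the coat protein of mitotic chromosomes used to count dividing cells. Its log2 values were 5.40 and 6.29 in NOCIA at 34 days, against 7.71 and 7.92 at NOCIA baseline. Both 34-day arrays were below both baseline arrays, and the difference was -1.97 ± 0.40 (SE of the limma fit, adjusted p = 0.00508). Ccnb2, a B-type cyclin that partners Cdk1 at the entry into mitosis, had 6.05 and 5.94 at 34 days, against 7.60 and 7.61 at baseline. Replicates of this cyclin lay close together, and the difference was -1.61 ± 0.32 (adjusted p = 0.00455). Cdkn3, a phosphatase of cyclin-dependent kinases, had 5.47 and 6.11 at 34 days, against 7.36 and 7.38 at baseline. Its groups did not overlap and the difference was -1.58 ± 0.42 (adjusted p = 0.0212). Ccnb1, the other B-type cyclin, had 5.05 and 5.35 at 34 days, against 5.93 and 6.22 at baseline. The difference was -0.87 ± 0.25 (adjusted p = 0.0344), and a second, dimmer probe set of Ccnb1 differed by -1.12.

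**Figure D2:**
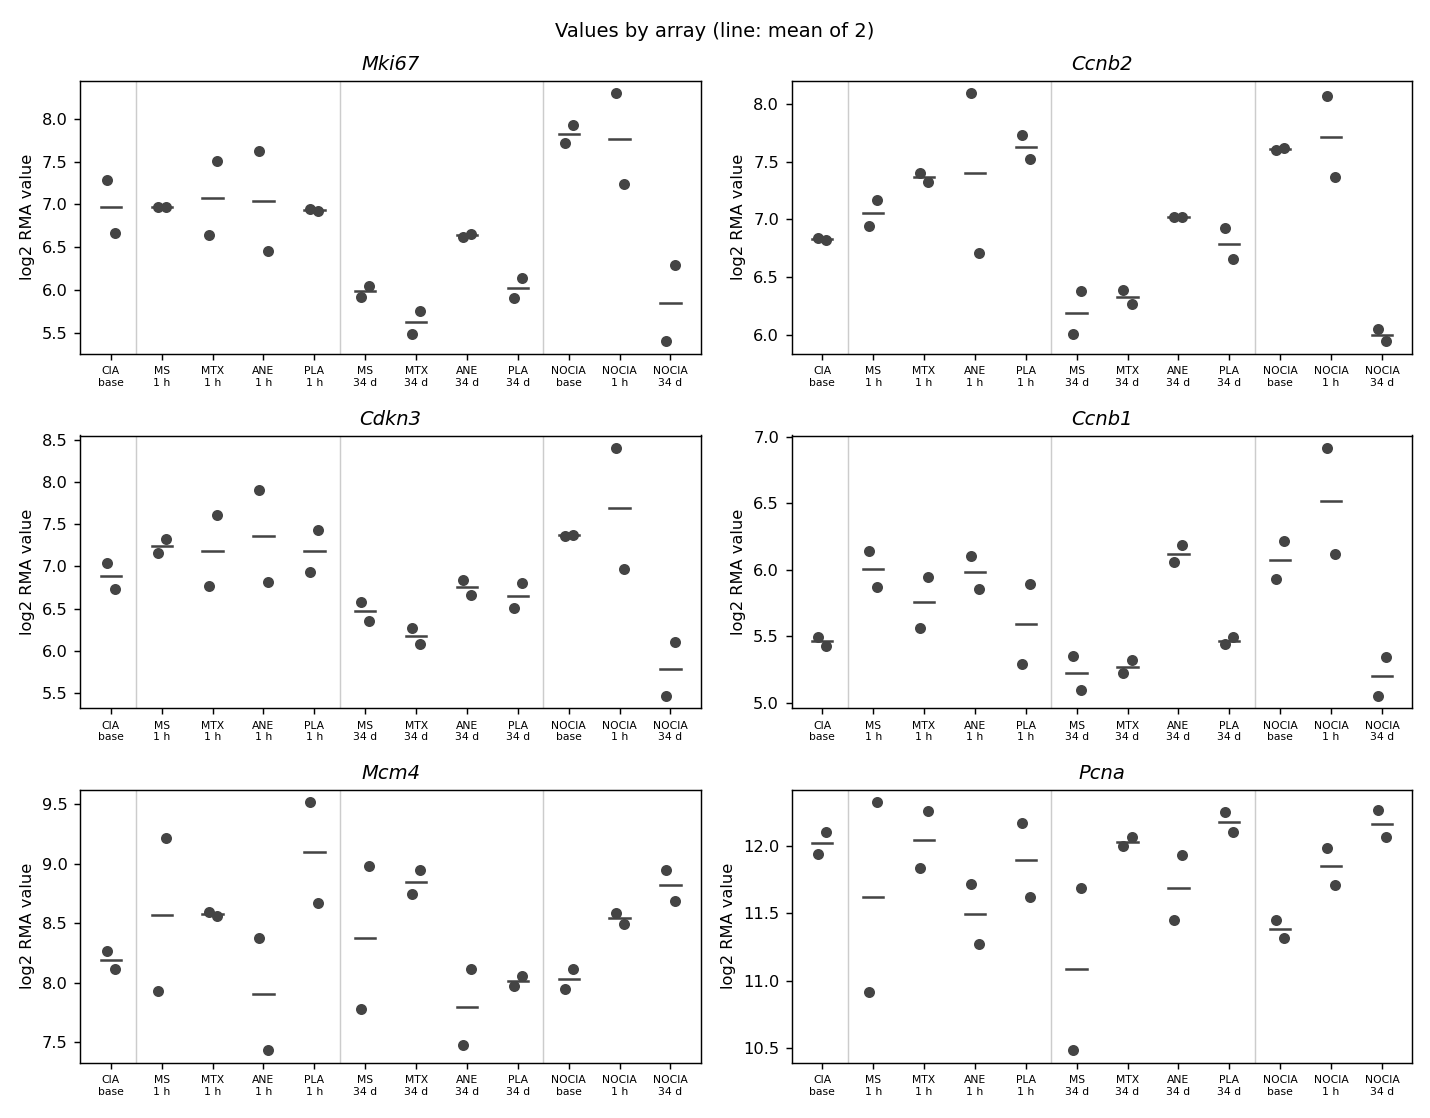
Log2 RMA values (y axis) of Mki67, Ccnb2, Cdkn3, Ccnb1, Mcm4 and Pcna in each of the 24 arrays by group (x axis), with a line at the mean of the 2 arrays. Both NOCIA arrays at 34 days lie below both NOCIA baseline arrays for the first 4 genes and above them for Mcm4 and Pcna.

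The other members of the cyclin and kinase family were below baseline without a call. Ccna2, the cyclin of S phase and G2, had 3.10 and 3.28 at 34 days, against 5.16 and 4.72 at baseline (-1.75 ± 0.72, adjusted p = 0.142). Cdk1 itself had 5.53 and 5.97 at 34 days, against 6.88 and 6.90 at baseline (-1.14 ± 0.61, adjusted p = 0.280). In both genes the groups did not overlap, but both 34-day values of Ccna2 and its baseline replicate 2 (4.72) lie under the filter. Cks1b, an adaptor subunit of Cdk1, had 6.40 and 6.38 at 34 days, against 6.99 and 6.93 at baseline (-0.56 ± 0.25, adjusted p = 0.181). All 6 members of this family were below baseline in both arrays, 3 of them called.

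Members of the later steps of division were below baseline with 2 exceptions, Aurka and Tacc3, and without a call. In the family of chromosome structure Top2a, the topoisomerase that untangles sister chromatids, had 5.47 and 5.76 at 34 days, against 7.01 and 6.93 at baseline (-1.36 ± 0.50, adjusted p = 0.0926). Racgap1, the GTPase-activating subunit of the central spindle needed for cytokinesis, had 4.55 and 4.66 at 34 days, against 6.26 and 6.02 at baseline (-1.54 ± 0.56, adjusted p = 0.0895). Neither gene passed the threshold, although their groups did not overlap. Both 34-day values of Racgap1 lie under the filter, as do those of Bub1 below. A second, dimmer probe set of Racgap1, which did not pass the filter, differed by -0.02. Prc1, which bundles the microtubules of that spindle, differed by -0.56 ± 0.22 (adjusted p = 0.112). Among the checkpoint genes Bub1, a kinase at unattached kinetochores, had 4.34 and 4.47 at 34 days, against 5.61 and 5.58 at baseline (-1.19 ± 0.42, adjusted p = 0.0843). Its relative Bub1b differed by -0.76, the checkpoint protein Mad2l1 by -0.57, the ubiquitin-conjugating enzyme Ube2c by -0.50, the survivin gene Birc5 by -0.17 and Cdc20, the activator of the anaphase-promoting complex, by -0.11. In the last 3 of these genes the groups overlapped. Among the spindle proteins Stmn1, which destabilises microtubules, had 8.94 and 9.06 at 34 days, against 10.07 and 10.14 at baseline (-1.11 ± 0.42, adjusted p = 0.108). The motors Kif23 (-0.72), Kif20a (-0.69) and Kif11 (-0.34) and the spindle protein Nusap1 (-0.42) were below baseline, and Tacc3 was not (0.04 ± 0.29). The direction of Tacc3 turned under quantile normalization (-0.01). Of the mitotic kinases Aurkb differed by -0.78 ± 0.31 (adjusted p = 0.128), Plk1 by -0.22 and Aurka, the kinase of the spindle poles, by 0.36 ± 0.39.

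Replication members divided by gene. Mcm4, a subunit of the replicative helicase, had 8.95 and 8.68 in NOCIA at 34 days, against 7.94 and 8.11 at NOCIA baseline (0.79 ± 0.43, adjusted p = 0.294). Pcna, the sliding clamp, had 12.26 and 12.07 at 34 days, against 11.45 and 11.32 at baseline (0.78 ± 0.40, adjusted p = 0.252). Both lay above baseline in both arrays without a call. Rfc4, a subunit of the loader that places the clamp, differed by 0.51 ± 0.33, Rrm1, the large subunit of ribonucleotide reductase, by 0.48 ± 0.35, Mcm6 by 0.47 ± 0.46 and Mcm2 by 0.40 ± 0.29. Mcm7 (-0.56 ± 0.31), Mcm3 (-0.49 ± 0.23), the methylation reader Uhrf1 (-0.36 ± 0.67) and Mcm5 (-0.16 ± 0.36) lay on the other side. None of these 10 genes was called, nor was Tk1 (-0.83 ± 0.66), and subunits of the helicase lay on both sides of 0.

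**Figure D3:**
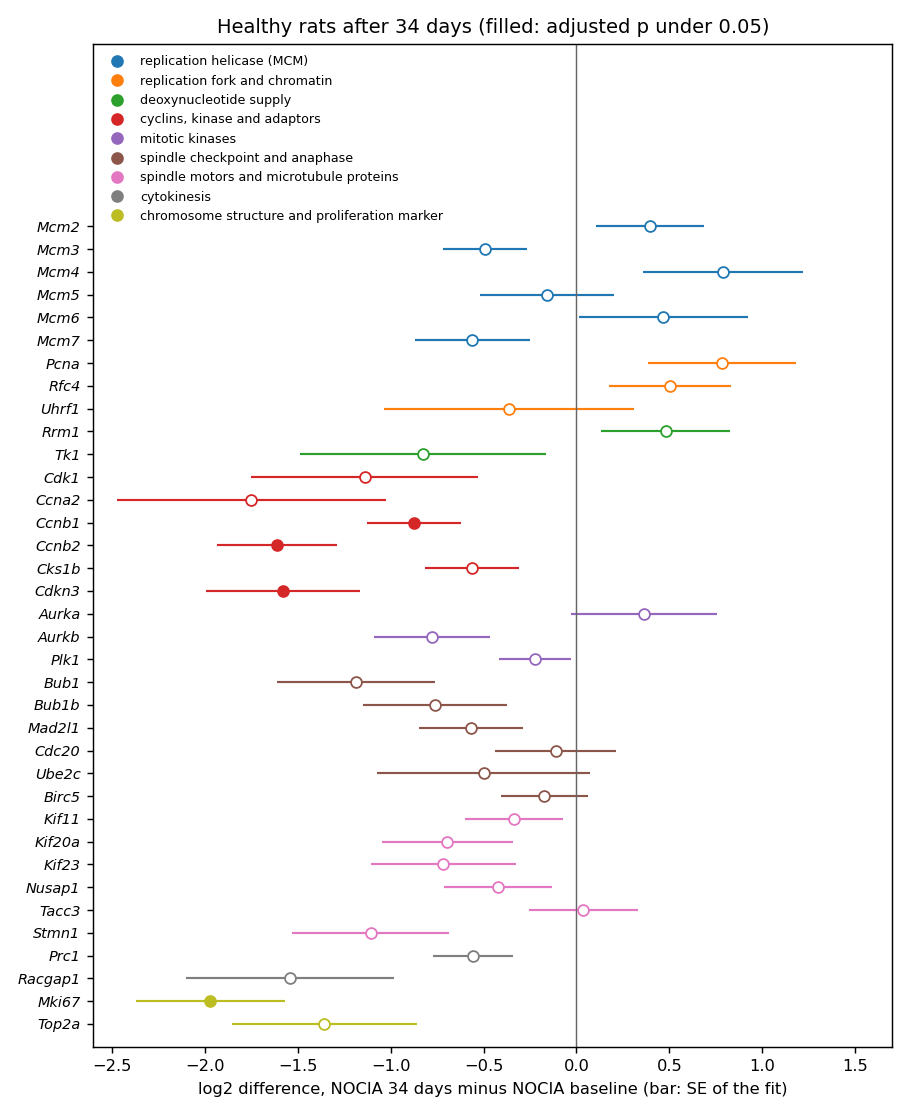
Log2 difference of each of the 36 members between NOCIA at 34 days and NOCIA baseline (x axis), with the SE of the limma fit as bars and functional families in colour, in the order of the families (y axis). Filled points (Ccnb1, Ccnb2, Cdkn3 and Mki67) were called. Points of the cyclin family all lie below 0, and 6 of the 11 replication and nucleotide members above it.

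Among 70 other cell cycle genes that passed the filter 4 rose and 2 fell in the same comparison, with a median difference of -0.30. The largest was Cks2, the paralogue of Cks1b, at 11.55 and 10.87 in NOCIA at 34 days, against 8.06 and 8.09 at NOCIA baseline (3.14 ± 0.24, adjusted p = 7.67e-06). The 2 paralogues thus had differences of opposite sign. Rfc3, another subunit of the clamp loader (1.63 ± 0.31), Cenpk, a kinetochore protein (1.46 ± 0.27), and Orc6, of the complex that marks replication origins (1.28 ± 0.35), also rose. Smc2, a condensin subunit (-1.56 ± 0.43), and the G1 kinase Cdk4 (-1.04 ± 0.30) fell.

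Marker lists of blood cells moved with this comparison, and their part in the result was not tested. The B cell list (8 of 11 genes measured) had levels of -0.56 and -0.53 in NOCIA at 34 days, against 0.73 and 0.78 at baseline, and 6 of its 8 genes fell. The list of NK and cytotoxic cells (10 of 12 genes) had -1.13 and -0.77 at 34 days, against 0.45 and 0.34 at baseline, and 2 of its 10 genes fell. The T cell list (15 of 18 genes) had -0.03 and -0.29, against 0.41 and 0.44, with 2 genes called lower. The 4 calls among the members depended on the arrays, since leaving out 1 of the 4 arrays left 1 to 3 called (2 without NOCIA baseline replicate 1, 1 without NOCIA baseline replicate 2 and 1 without NOCIA 34-day replicate 1). A fit of these groups alone called 24 members. The share of all probe sets called was not counted in this or any other alternative fit, so such counts of members have no background beside them.

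At baseline CIA rats had the lower values in most division members, though without a call. Division members were below NOCIA baseline in 23 of 25 (median -0.42), whereas the replication and nucleotide members had a median of 0.02. No member was called by limma among 36, while 0 passed an unadjusted p under 0.05 as higher and 4 as lower, and 0.00483% of all probe sets were called. Arrays did not overlap, with CIA lower, in 18 of 36 members (50%), against 23.1% of all probe sets, and the median difference was -0.24 over the members and 0.01 over all probe sets. Ccnb2 had 6.84 and 6.83 in CIA, against 7.60 and 7.61 in NOCIA (-0.78 ± 0.32, adjusted p = 1), and Ccnb1 5.50 and 5.43 in CIA, against 5.93 and 6.22 in NOCIA (-0.61 ± 0.25, adjusted p = 1). In both cyclins the groups did not overlap. The spindle motor Kif11 (-0.69 ± 0.26), Mcm3 (-0.50 ± 0.23) and Mki67 (-0.84 ± 0.40) completed the 5 largest by moderated statistic. Ccna2 differed most in size, at 3.71 and 3.79 in CIA, against 5.16 and 4.72 in NOCIA (-1.19 ± 0.72). All of these Ccna2 values but the first of NOCIA lie under the filter. Without NOCIA baseline replicate 1, or without CIA baseline replicate 2, the median difference was -0.14, without CIA baseline replicate 1 it was -0.35, and a fit of these groups alone called 5 members. The B cell list had 0.22 and 0.29 in CIA, against 0.73 and 0.78 in NOCIA, with 7 of its 8 genes lower without overlap, and the platelet list -0.45 and -0.69, against -0.28 and -0.11, with 10 of 14. None of these genes was called, and their part was not tested. This comparison shares the NOCIA baseline arrays with that of NOCIA at 34 days.

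After 34 days the CIA arms were set against CIA baseline, and no member was called in any of them. In MS the median over members was -0.35 and that over all probe sets -0.16 (-0.22 and -0.05 under quantile normalization), and the arrays did not overlap, with MS lower, in 17 of 36 members (47.2%), against 38.4% of all probe sets. With 6.96% of all probe sets called, 0 of 36 members were called by limma, and 2 were higher and 7 lower at an unadjusted p under 0.05. Mcm7, a helicase subunit, had 8.36 and 9.37 in MS, against 9.91 and 9.83 at CIA baseline. The MS arrays differed by more than a unit, both below baseline (-1.01 ± 0.31, adjusted p = 0.0557). Cdc20, the activator of the anaphase-promoting complex, had 7.43 and 6.34 in MS, against 6.06 and 5.78 at baseline, above it in both arrays (0.96 ± 0.33, adjusted p = 0.0661). A second, dimmer kept probe set of Cdc20 had 5.82 and 5.13 in MS, against 4.80 and 5.14 at baseline, and its groups overlapped. Mki67 had 5.92 and 6.05 in MS, against 7.28 and 6.66 at baseline (-0.99 ± 0.40, adjusted p = 0.0964). Prc1 (-0.66 ± 0.22, adjusted p = 0.0623) and Aurkb, the kinase of the chromosomal passenger complex (-0.76 ± 0.31, adjusted p = 0.0981), were the other 2 of the 5 largest by moderated statistic. By size Bub1 (-1.02 ± 0.42, adjusted p = 0.101) and Racgap1 (-0.98 ± 0.56, adjusted p = 0.202) differed more than these 2, without a call. Among the 70 other cell cycle genes Cks2 (1.5 ± 0.24) and the cytokinesis kinase Cit (2.14 ± 0.61) rose, and Smc2 (-1.48 ± 0.43), the checkpoint gene Bub3 (-1.09 ± 0.29), the retinoblastoma relative Rbl1 (-1.41 ± 0.34) and Lin9, of the complex that controls division genes (-1.17 ± 0.32), fell. The difference of Cks2 from CIA baseline was 1.30 in MTX (adjusted p = 0.526), 0.62 in ANE (adjusted p = 1) and 1.74 in PLA (adjusted p = 0.0621), without a call, and MS differed from PLA by -0.24 ± 0.24 (adjusted p = 0.535).

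The MS arrays differed from each other in cell markers. The platelet list had 1.29 and 0.47 in MS at 34 days, against -0.45 and -0.69 at CIA baseline, and the T cell list -1.47 and -0.14, against 0.44 and 0.48. When 1 array was left out, the median over members against CIA baseline ran from -0.46 to -0.29. A fit without NOCIA replicate 1 and ANE replicate 1 at 1 hour, the arrays of highest member level, called 4 members. The share of all probe sets called was not counted in that fit, so this count has no background beside it. Of the markers 3 of 15 T cell genes, 5 of 8 B cell genes and 3 of 6 plasma cell genes were called lower and 0 of 14 platelet genes were called. The part of these cells in the members' values was not tested.

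In MTX 21 of the 25 division members had a mean below CIA baseline, without a call. The median over members was -0.23 and that over all probe sets -0.01, and MTX lay below CIA baseline without overlap in 20 of 36 members (55.6%), against 30.3% of all probe sets. Mki67 had 5.49 and 5.75 in MTX, against 7.28 and 6.66 at baseline (-1.35 ± 0.40, adjusted p = 0.629), and Aurkb 5.52 and 5.76, against 6.50 and 6.55 (-0.88 ± 0.31, adjusted p = 0.684). Both genes lay below baseline in both arrays. Bub1 (-0.84 ± 0.42), Racgap1 (-1.0 ± 0.56) and Cdkn3 (-0.72 ± 0.42) followed. In limma 0 of 36 members and 0.0% of all probe sets were called, and 0 members were higher and 2 lower at an unadjusted p under 0.05. The list of NK and cytotoxic cells had -0.94 and -0.25 in MTX, against 0.46 and 0.55 at CIA baseline, with 8 of its 10 genes lower without overlap. The B cell list had -0.20 and -0.37, against 0.22 and 0.29 (6 of 8 genes), and the T cell list -0.06 and 0.01, against 0.44 and 0.48 (11 of 15). No gene of these lists was called, and their part in the members' values was not tested.

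ANE and PLA lay closer to CIA baseline. In ANE the median over members was -0.02 and its sign turned under quantile normalization (0.02). Ccnb1 had 6.06 and 6.19 in ANE, against 5.50 and 5.43 at baseline (0.66 ± 0.25, adjusted p = 1), above baseline in both arrays. In a second, dimmer probe set of Ccnb1 these groups overlapped, at 4.95 and 5.09 in ANE, against 5.10 and 4.63 at baseline. Plk1, a kinase of mitotic entry (0.32 ± 0.19), Kif11 (0.36 ± 0.26), Ube2c (0.85 ± 0.57) and Aurkb (-0.39 ± 0.31) were the next largest. A second, dimmer probe set of Kif11 overlapped as well (4.32 and 4.83 in ANE, against 4.79 and 4.51). In PLA the median was -0.13, and Mki67 had 5.91 and 6.15 in PLA, against 7.28 and 6.66 at baseline (-0.94 ± 0.40, adjusted p = 0.994). Bub1 (-0.51), Aurkb (-0.32), Mcm7 (-0.31) and Plk1 (0.20) came next. No member was called in either arm by limma, with 1 higher and 0 lower at an unadjusted p under 0.05 in ANE and 0 higher and 1 lower in PLA, and 0.0% of all probe sets were called in both. Mki67 was thus below CIA baseline in both arrays in MS, MTX and PLA, and in ANE it had 6.62 and 6.66, against 7.28 and 6.66 at baseline, level with the lower baseline array.

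**Figure D4:**
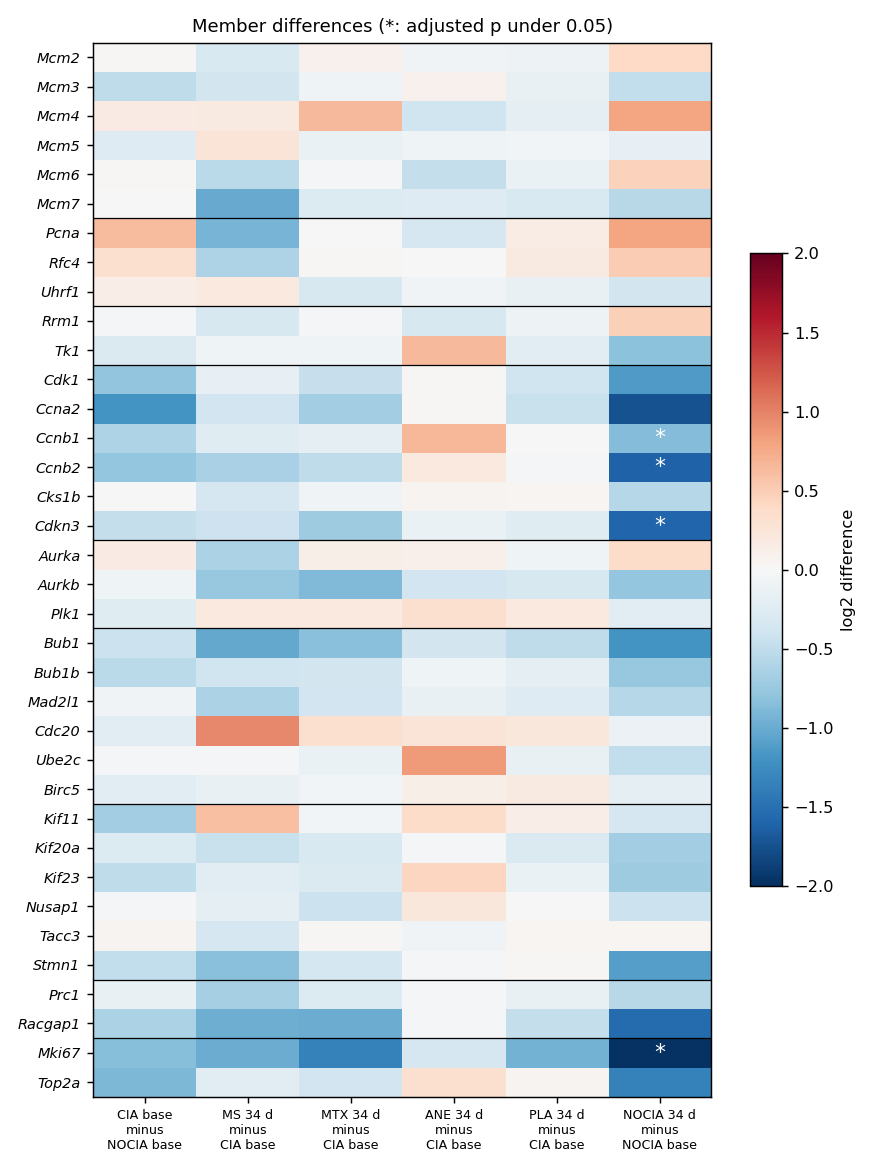
Log2 difference (colour, from -2 to 2) of the 36 members (rows, black lines between families) in 6 comparisons (columns), with asterisks at calls. The strongest blue lies in the NOCIA 34-day column, where the 4 asterisks are. Ccna2, Racgap1 and Mki67 are blue in the MS, MTX, PLA and NOCIA columns and in that of CIA baseline against NOCIA baseline.

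Arms at 34 days were also compared with each other. In MS against PLA Pcna had 10.49 and 11.69 in MS, against 12.25 and 12.10 in PLA (-1.09 ± 0.40, adjusted p = 0.179). Rfc4 differed by -0.79 ± 0.33, Mcm7 by -0.70 ± 0.31, Prc1 by -0.52 ± 0.22 and Cdc20 by 0.74 ± 0.33. In MS against MTX Kif11 differed by 0.66 ± 0.26, Mcm7 by -0.74 ± 0.31, Pcna by -0.95 ± 0.40, Rfc4 by -0.64 ± 0.33 and Cdc20 by 0.64 ± 0.33. Pcna in MS replicate 1 was the lowest of all 24 arrays. A second, dimmer probe set of Kif11 had 4.83 and 3.92 in MS, against 4.44 and 4.30 in MTX, and its groups overlapped. A second kept probe set of Cdc20 had 5.82 and 5.13 in MS, against 5.17 and 4.74 in MTX and 4.66 and 5.24 in PLA. Its MS arrays overlapped with both groups. In MTX against PLA Mcm4 had 8.74 and 8.95 in MTX, against 7.97 and 8.06 in PLA, without overlap (0.83 ± 0.43, adjusted p = 1), and Aurkb (-0.56 ± 0.31), Nusap1 (-0.42), Ccnb2 (-0.46) and Cdkn3 (-0.48) followed. A second probe set of Nusap1, nearly as bright, lay the other way, at 5.46 and 5.14 in MTX, against 5.13 and 4.98 in PLA. No member was called by limma in any of the 3 comparisons, and 0.0% of all probe sets were called in each. At an unadjusted p under 0.05 there were 1 higher and 4 lower in MS against PLA, 1 and 2 in MS against MTX and 0 and 0 in MTX against PLA. When 1 array was left out, the median over members in MS ran from -0.30 to -0.17 against PLA and from -0.086 to 0.0045 against MTX. Without MS replicate 1 the differences from PLA were -0.24 for Rfc4, 0.20 for Cdc20, -0.49 for Pcna and -0.19 for Mcm7, and those from MTX -0.09 for Rfc4, 0.09 for Cdc20 and 0.37 for Kif11. In such fits the remaining MS array is assumed to vary like the other groups.

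The 34-day difference was next compared between arms and healthy rats, as the change of an arm from CIA baseline minus the change of NOCIA from its own. It was called for 2 members, both cyclins and both in ANE. Ccnb1 had 6.06 and 6.19 in ANE at 34 days and 5.50 and 5.43 at CIA baseline, against 5.05 and 5.35 in NOCIA at 34 days and 5.93 and 6.22 at NOCIA baseline, a difference of changes of 1.53 ± 0.36 (adjusted p = 0.0344). Ccnb2 had 7.02 and 7.02 in ANE at 34 days and 6.84 and 6.83 at CIA baseline, against 6.05 and 5.94 in NOCIA at 34 days and 7.60 and 7.61 at NOCIA baseline (1.80 ± 0.45, adjusted p = 0.0464). In these probe sets both cyclins were above CIA baseline in ANE and below NOCIA baseline in NOCIA. A second, dimmer probe set of Ccnb1 had 4.95 and 5.09 in ANE at 34 days, against 5.10 and 4.63 at CIA baseline. These groups overlapped. In NOCIA it had 4.48 and 4.21 at 34 days, against 5.53 and 5.40 at baseline. Of the 36 members 2 were called, against 2.86% of all probe sets, and the median over members was 0.60 against 0.04 over all probe sets. Mki67 (1.64 ± 0.57), Cdkn3 (1.44 ± 0.59) and Top2a (1.68 ± 0.70) followed without a call. Among the 70 other cell cycle genes Cks2 (-2.52 ± 0.35, adjusted p = 0.00534) and Cenpk (-1.73 ± 0.38, adjusted p = 0.0278) were called lower in the same difference. Leaving out any 1 of the 8 arrays involved left 0 members called, and a fit of these groups alone called 16. The B cell list had 0.21 and 0.78 in ANE at 34 days and 0.22 and 0.29 at CIA baseline, against -0.56 and -0.53 in NOCIA at 34 days and 0.73 and 0.78 at NOCIA baseline, with 4 of its 8 genes called higher, and its part was not tested.

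The same difference was not called for any member in the other arms. In PLA Ccnb2 differed by 1.57 ± 0.45 (adjusted p = 0.221), Ccnb1 by 0.88 ± 0.36, Cdkn3 by 1.34 ± 0.59, Top2a by 1.42 ± 0.70 and Stmn1 by 1.13 ± 0.60. In MTX Ccnb2 differed by 1.11 ± 0.45 (adjusted p = 0.585), Ccnb1 by 0.68 ± 0.36, Plk1 by 0.41 ± 0.27, Cdkn3 by 0.86 ± 0.59 and Top2a by 0.98 ± 0.70. In MS Ccnb2 differed by 0.97 ± 0.45 (adjusted p = 0.251) and the replication genes Pcna and Rfc4 by -1.72 ± 0.56 and -1.12 ± 0.46, with Kif11 at 0.93 ± 0.37 and Cdc20 at 1.07 ± 0.46. At an unadjusted p under 0.05, 3 members were higher and 0 lower in PLA, 1 and 0 in MTX and 3 and 2 in MS. The shares of all probe sets called were 0.00967% in PLA, 0.0242% in MTX and 0.0338% in MS. When 1 array was left out, the median over members in MS ran from 0.19 to 0.30. All 4 differences share the 2 NOCIA groups and CIA baseline.

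One hour after treatment no member was called in any arm, and replicates differed widely. NOCIA replicate 1 was above replicate 2 in 33 of 36 members (median 0.74), ANE replicate 1 in 31 (median 0.80), and MTX replicate 1 was above replicate 2 in 2 (median -0.42). NOCIA replicate 1 was the highest of all 24 arrays for 16 members and ANE replicate 1 for 7. Ccna2 had 6.07 and 3.45 in the NOCIA arrays and 5.66 and 3.29 in the ANE arrays at 1 hour, and Uhrf1, which reads methylated DNA, 7.02 and 4.38 in NOCIA and 6.55 and 4.66 in ANE. In the array with more of the set's transcripts, replicate 1 of both groups, the list of NK and cytotoxic cells was also higher, at 1.25 against -0.48 in NOCIA replicate 2 and 1.10 against -0.59 in ANE replicate 2, and the neutrophil and monocyte lists were lower. Neutrophil levels were -0.39 and 0.57 in the NOCIA arrays and -1.23 and 1.88 in the ANE arrays, and monocyte levels -0.05 and 0.08 in NOCIA and -1.24 and 1.05 in ANE. The part of these cells was not tested. The median over members was 0.17 in MS, 0.17 in MTX, 0.26 in ANE and 0.01 in PLA from CIA baseline and 0.12 in NOCIA from NOCIA baseline. It was -0.18 in ANE without replicate 1, -0.32 in NOCIA without replicate 1 and -0.056 in MTX without replicate 2, so the sign of each of these 3 rested on 1 array. In MS it ran from 0.034 to 0.31 when 1 array was left out.

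By moderated statistic the 5 members that differed most from CIA baseline at 1 hour were, in MS, Kif11 (0.60), Ccnb1 (0.54), Cdc20 (0.68), Prc1 (-0.44) and Mcm7 (-0.57). In MTX they were Kif11 (0.49), Ccnb2 (0.53), Prc1 (-0.34), Ccnb1 (0.29) and Top2a (0.57). In ANE they were Plk1 (0.57), Prc1 (0.50), Ccnb1 (0.52), Rrm1 (-0.61) and Ccnb2 (0.57), and in PLA Ccnb2 (0.79), Cdc20 (0.69), Mcm4 (0.90), Ube2c (1.08) and Mcm7 (-0.54). A second, dimmer probe set of Kif11 differed by -0.072 in MS, and its groups overlapped. In MTX that probe set overlapped with CIA baseline as well. A second kept probe set of Cdc20 had 5.32 and 5.04 in MS, against 4.80 and 5.14 at CIA baseline, and its groups overlapped. The second probe set of Ccnb1 lay above CIA baseline in both MS arrays. The comparisons of these 4 arms share the CIA baseline arrays. NOCIA against its own baseline gave Ccnb1 (0.44), Mcm3 (-0.38), Ube2c (0.87), Uhrf1 (0.89) and Mcm4 (0.51). When 1 of these arrays was left out, Ccnb1 ran from 0.046 to 0.84, Ube2c from 0.16 to 1.58 and Uhrf1 from -0.43 to 2.21. MS against PLA gave Bub1 (0.77), Ccnb2 (-0.57), Ccnb1 (0.41), Ube2c (-0.77) and Mcm4 (-0.52). MTX against PLA gave Ube2c (-1.28), Tk1 (-1.12), Aurkb (0.52), Cdc20 (-0.54) and Mad2l1 (0.45). Of the 2 dimmer kept probe sets of Tk1, 1 had 6.78 and 6.97 in MTX, against 6.49 and 6.95 in PLA. The other had 5.63 and 5.84 in MTX, against 5.59 and 6.13 in PLA, and in both the groups overlapped. In limma 0 of 36 members were called in each of the 7 comparisons at 1 hour. At an unadjusted p under 0.05 there were 2 higher and 0 lower in MS, in ANE and in PLA, and 0 and 0 in MTX, all against CIA baseline, 0 and 0 in NOCIA against NOCIA baseline, 0 and 0 in MS against PLA, and 0 and 1 in MTX against PLA. The shares of all probe sets called were 0.00967% in MS, 0.0145% in MTX, 0.0338% in ANE and 0.0% in PLA against CIA baseline, 0.00483% in NOCIA, and 0.0% in MS and in MTX against PLA. Without MS replicate 2 at 1 hour 2 members were called in MS, and without ANE replicate 2 at 1 hour 1 in ANE. The single member lower in MTX than in PLA was Ube2c (-1.28 ± 0.57, adjusted p = 0.630). Cks2 rose in MS at 1 hour, with 10.40 and 11.18 in MS, against 8.94 and 8.82 at CIA baseline (1.91 ± 0.24, adjusted p = 0.0189). The Cks2 differences of the other groups from their baselines at 1 hour were not called and were 1.57 in MTX (adjusted p = 0.0511), 1.15 in ANE (adjusted p = 0.175), 1.71 in PLA (adjusted p = 0.0758) and 1.66 in NOCIA (adjusted p = 0.0512). MS differed from PLA by 0.20 ± 0.24 (adjusted p = 1).

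Ube2c and the brightest probe set of Tk1, the thymidine kinase that salvages thymidine for replication, had the same array higher in every group. In all 12 groups the array with the higher value of that Tk1 probe set was also the one with the higher Ube2c, and in 10 of the 12 groups it was the one with the higher level of the erythroid marker list (9 of 12 genes measured). For the other 34 members that number ran from 0 to 8 with a median of 4. At CIA baseline Tk1 had 9.43 and 7.50, Ube2c 9.74 and 7.84 and the erythroid list 0.46 and -0.93. In NOCIA at 1 hour Tk1 had 8.49 and 10.09, Ube2c 8.98 and 10.40 and the erythroid list -0.26 and 0.69, the reverse of the order that most members took there. The erythroid genes Alas2 and Klf1 had 12.02 and 7.93 in replicate 1 and 13.27 and 9.32 in replicate 2 of that group. The SE of a difference was 0.66 for Tk1 and 0.57 for Ube2c, and neither gene was called in any comparison. The 2 dimmer kept probe sets of Tk1 did not follow this order. They had the same array higher as Ube2c in 7 of 12 groups each, and as the erythroid list in 7 and 5 of 12. At CIA baseline they had 6.78 and 6.74 in one and 5.57 and 5.63 in the other, and in NOCIA at 1 hour 7.18 and 6.65, and 5.97 and 5.58, so the Tk1 pattern rests on 1 of 3 probe sets. A part of red cell precursors in these values was not tested.

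**Figure D5:**
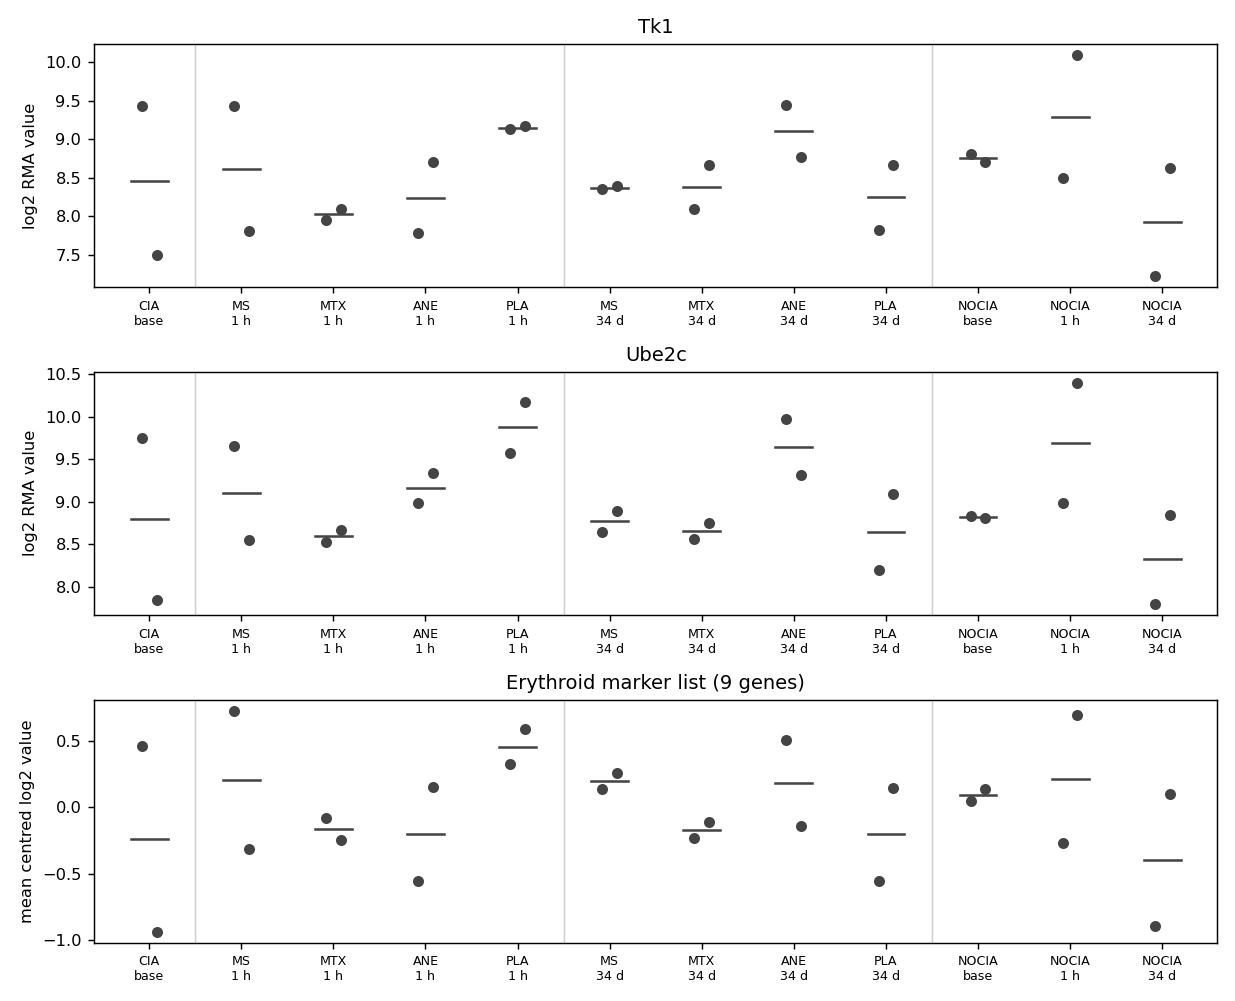
Log2 RMA values of Tk1 (its brightest probe set) and Ube2c and the level of the erythroid marker list (9 genes, mean of centred log2 values, y axes) in each of the 24 arrays by group (x axis), with a line at the mean of the 2 arrays. The arrays high or low in the list at CIA baseline (0.46 and -0.93) and in NOCIA at 1 hour (-0.26 and 0.69) are high or low in both genes.

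The remaining members were dim or not separable. Melk, a kinase of proliferating cells, ran from 3.65 to 4.78, Ttk, a checkpoint kinase, from 2.95 to 4.20 and Ect2, the exchange factor that starts cytokinesis, from 3.18 to 5.21, under the filter in all but at most 1 array. The array with the highest Ttk and Ect2 was NOCIA replicate 1 at 1 hour, the array with the highest level of the set. The brighter of 2 probe sets annotated to both Rrm2, the small subunit of ribonucleotide reductase, and Rrm2l1 had 6.53 and 6.43 in NOCIA at 34 days, against 8.64 and 8.62 at NOCIA baseline. These arrays did not overlap and the mean differed by -2.15, but which of the genes was read cannot be told apart. A probe set annotated to Hmgb2, a chromatin protein, and 3 related sequences had 12.04 and 11.73 at 34 days, against 12.09 and 12.04 at baseline.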

How the data were processed

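RNA of PBMCs from 24 rats was measured on whole-genome rat arrays of Affymetrix. The authors deposited log2 expression values per probe set, made with RMA in the affy package per the labels, while the study's methods name MAS5 for the arrays. The values (2.18 to 15.02) are on the scale that RMA gives and were used without further normalization. RMA sets all arrays to a common distribution of probe values, which can hide a shift of all genes. The table held 31099 probe sets, of which 57 were controls. By the platform annotation 20832 had 1 gene symbol, 436 several and 9831 none, and 20764 had a gene ID found in the RefSeq table.

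Probe sets above the 40th percentile of the array (4.83 to 5.06) in at least 2 arrays were kept (20690). A coefficient per group was fitted with lmFit and eBayes in limma 3.58.1 (R 4.3.3) to all 24 arrays in 12 groups, and p-values were adjusted by Benjamini-Hochberg over all probe sets kept. A call is an adjusted p under 0.05, and ± is the SE of the fit. With 2 arrays a group, precision is limited by their number. There were 16 pair comparisons and 4 differences of changes. Samples were grouped by the labels, and p-values measure the spread between rats. Each array is a separate animal, and replicate numbers were not used to pair rats in the main fit. Over 66 pairs of groups the correlation of replicate differences ran from -0.756 to 0.805, with a median of -0.006. That median cannot decide whether the numbers share a structure, since correlations of either sign cancel in it. Any member could be named. Per comparison the members called, and up to 5 by moderated statistic where fewer were called, were described, with called genes of the other cell cycle list (at most 6). The members and lists were chosen with earlier results of these data known. The level of a list is the mean of log2 values centred per gene. Alternatives were another filter, no filter, quantile normalization, array weights, a fit of the groups compared alone, the mean of a gene's probe sets, a replicate block and leaving out each array. Leaving out the 4 arrays that stood apart, and the 2 of highest member level, was chosen after seeing the data. The fit was tested on simulated data. Tables and plots were made with Python 3.11.15, pandas 2.3.3 and matplotlib 3.10.9. No genome was used here beyond RefSeq promoter windows.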

Additional observations from a re-analysis of the deposited data

Results flagged for a closer look

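The 34-day change differed between ANE and NOCIA for 2 members by the test of the difference itself. For Ccnb1 the change in ANE minus that in NOCIA was 1.5339 on the log2 scale, and for Ccnb2 it was 1.8016. In a second, dimmer probe set of Ccnb1, ANE at 34 days overlapped with CIA baseline. Both calls were lost when any 1 of the 8 arrays involved was left out.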

How the results depend on the processing

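Of the log2 differences of named members recomputed under the alternatives, 1377 kept their direction and side of the threshold, 58 became called, 28 lost a call and 7 turned. The cause of a change was not tested unless the alternative itself shows it. Those that turned were Ube2c in ANE at 34 days against CIA baseline (-0.10 without CIA baseline replicate 2 and 1.80 without replicate 1), Uhrf1 in NOCIA at 1 hour (-0.43 without NOCIA replicate 1 at 1 hour, alone or with ANE replicate 1, and 2.21 without NOCIA replicate 2), Mcm4 in MS against PLA at 1 hour (0.12 without MS replicate 1 and -1.17 without replicate 2) and Ccnb2 in ANE at 1 hour (-0.13 without ANE replicate 1, alone or with other arrays, and 1.26 without replicate 2).

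A fit of the groups compared alone called 5 members in CIA against NOCIA at baseline, 24 in NOCIA at 34 days, and 2, 16 and 9 in the difference of changes of MTX, ANE and PLA. The share of all probe sets called was not counted in this fit or in the other alternatives. Array weights called 3 at baseline, 2 in MTX and 1 in PLA at 34 days, 23 in NOCIA at 34 days, and 1, 12 and 6 in the difference of changes of MTX, ANE and PLA. With no filter, and with the mean of a gene's probe sets, 1 was called for ANE in that difference. Without the 4 arrays apart 2 were called in ANE at 1 hour, 14 in NOCIA at 34 days, and 1, 5 and 2 in the difference of changes of MTX, ANE and PLA. Without the 2 arrays of highest level 4 were called in MS at 34 days, 10 in NOCIA at 34 days and 1 in the difference for PLA.

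Medians moved with the filter at the 60th percentile to -0.16 in CIA at baseline, -0.14 in MTX and -0.50 in NOCIA at 34 days, and 0.29 and 0.36 in the difference for MTX and PLA. With no filter that of MTX at 34 days was -0.19. Quantile normalization gave -0.046 in PLA at 34 days, 0.079 in PLA at 1 hour, -0.53 in NOCIA at 34 days, and 0.39 and 0.32 in the difference for MS and MTX. Without the 4 arrays apart, and without the 2 of highest level, the median was -0.18 in ANE at 1 hour. It was 0.28 in MS against PLA at 1 hour without the 4, and -0.32 in NOCIA at 1 hour without the 2.

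Leaving out 1 array at a time, with its remaining partner assumed to vary like the other groups, gave 1 to 3 calls in NOCIA at 34 days, 0 to 7 in MS at 34 days against CIA baseline, 0 to 5 against PLA and 0 to 5 against MTX, 0 to 2 in MS and 0 to 1 in ANE at 1 hour, and 0 to 4 for MS and 0 to 0 for ANE in the difference of changes. Medians ran from -0.35 to -0.14 in CIA at baseline, from -0.32 to 0.47 in NOCIA, from -0.18 to 0.63 in ANE and from -0.056 to 0.39 in MTX at 1 hour, from -0.055 to 0.42 in MTX against PLA at 1 hour, from -0.080 to 0.051 in ANE and from -0.086 to 0.0045 in MS against MTX at 34 days, from 0.0051 to 0.31 in MS against PLA at 1 hour, from -0.57 to -0.49 in NOCIA, from -0.28 to -0.22 in MTX and from -0.16 to -0.076 in PLA at 34 days, from -0.19 to -0.087 in MTX against PLA, and from 0.26 to 0.36, from 0.50 to 0.66 and from 0.37 to 0.50 in the difference for MTX, ANE and PLA.

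With the replicate number as a block 4 members were called in NOCIA at 34 days and the median was -0.56, and the block moved no other count or median. The numbers share no animal or batch in the labels.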
